A study of Mus musculus with 12 samples.

Results

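Interferon-induced genes and guanylate-binding proteins were examined in adult neural stem/progenitor cells (aNSPCs) of the mouse cultured with or without NAD+. The group held 42 genes of the 55401 in the expression tables, and its members were chosen by gene name from a list of 9 guanylate-binding proteins (Gbp), 4 immunity-related GTPases, 5 transcription factors of the interferon response, 4 nucleic acid sensors, Isg15 with its protease Usp18, 4 members of the IFIT family, 8 other antiviral effectors and 6 further interferon-induced genes. That list was drawn up with fold changes of these libraries known, and it is not recorded which comparison was used. The values of the members with and without NAD+ are therefore given as a description. Of the fits over all genes only effect sizes and counts beside those of all genes are shown for these comparisons, with no p-value for a single member. Cells came from the forebrain of C57BL/6 mice aged 8 to 10 weeks and were grown in medium with EGF and FGF-2. RNA-seq was made from proliferating cells without NAD+ (proliferating Ctrl) or with 1 mM NAD+ (proliferating NAD+), and from cells given 1 µM retinoic acid and 5 µM forskolin, which make them differentiate, without NAD+ (differentiation Ctrl) or with 1 mM NAD+ (differentiation NAD+). Each of the 4 groups had 3 libraries, 12 in all. One field of the labels lists all 12 as untreated, and the groups followed the titles. The study calls the libraries of a group biological repeats, but the labels do not say whether they came from separate mice or cultures, so p-values measure only the spread between these libraries. The time of exposure before RNA was taken is not given for these libraries.

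Interferons are secreted proteins. Type I interferons (IFN-alpha and IFN-beta) are released by cells that sense viral or bacterial nucleic acid, and bind IFNAR1 and IFNAR2. Type II interferon (IFN-gamma) binds IFNGR1 and IFNGR2. Both kinds of receptor work through Janus kinases (JAK1 with TYK2 or JAK2), which phosphorylate STAT proteins. STAT2 and IRF9 are parts of a complex that binds the interferon-stimulated response element (ISRE) in promoters, whereas the gamma-activated site (GAS) is the element of the IFN-gamma response. The targets include the guanylate-binding proteins, large GTPases of the dynamin superfamily that assemble on vacuoles of intracellular pathogens, and antiviral proteins such as the IFITs. In the brain, microglia, astrocytes and other cell types can switch on these genes.

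The values were FPKM, in which the fragments of a gene are divided by its transcript length and by the total of its library. It is a level per length that was deposited to 0.01 and holds no read count, so the depth of each library is unknown. Summed FPKM ranged from 308828 to 363330 per library, with the highest value in proliferating Ctrl replicate 1. All 8 markers of neural stem and progenitor cells (Nes, Sox2 and others) had a mean of at least 1 FPKM in each of the 4 groups. Their summed level was between 2964 and 3223 FPKM in proliferating Ctrl and between 882 and 968 FPKM in differentiation Ctrl. Fabp7 was the largest part of this sum, with means of 2107 and 449 FPKM in these groups. Other markers differed less evenly, with means of 68.8 and 9.92 FPKM for Nes, 225 and 147 FPKM for Sox2 and 28.2 and 25.9 FPKM for Egfr. A gene was tested where its mean FPKM over the libraries compared was at least 0.1, and fold changes were differences of log2(FPKM + 0.1), which understate the change of genes with low values. This filter kept 33 of the 42 members in the proliferating libraries and 35 of 42 in the differentiation libraries. The 7 members below it under differentiation conditions (Gbp4, Gbp5, Gbp8, Zbp1, Oas1a, Mx1 and Ifi44) had no library above 0.18 FPKM. Under proliferating conditions Gbp10 and Iigp1 were below it as well, and the 9 genes had no library above 0.11 FPKM. The filter could also be passed through the NAD+ libraries alone. Under differentiation conditions Iigp1 had means of 0.04 FPKM in Ctrl and 0.197 FPKM with NAD+. Under proliferating conditions Xaf1 had 0.067 and 0.153 FPKM and Oasl2 0.09 and 0.12 FPKM. These genes are counted among the tested members.

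Many of these genes carry the ISRE in their promoters. Windows of 300 bases, from 250 before to 50 after a transcription start listed by RefSeq (GRCm38.p6), were found for 30 of the 42 members (37 windows). The ISRE core was searched as GAAANNGAAA on both strands, where N is any base and overlapping matches counted each, and the GAS as TTCNNNGAA, which reads the same on both strands. The ISRE core was present in 18 of the 37 member windows (48.65%), 1 window in each of 18 genes, against 3.44% of the 32851 windows of all genes. The GAS letters were present in 12 member windows (32.43%) against 8.30% of all windows. Both were present in 7 member windows, and the matches shared bases in 2 of them (Bst2 and Ifitm3). A match of letters is not proof of a bound site, and a window without one says only that the letters are not in that stretch.

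The upstream stretches around the ISRE core are shown for the genes that the values below turn on, read 5′ to 3′ on the strand of the gene in GRCm38.p6, with the core or its reverse complement in capitals.
Gbp2 (chr3:142620589-142620628, + strand): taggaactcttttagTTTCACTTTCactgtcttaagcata
Gbp3 (chr3:142559984-142560029, + strand): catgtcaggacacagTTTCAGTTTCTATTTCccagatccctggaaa
Gbp7 (chr3:142530268-142530307, + strand): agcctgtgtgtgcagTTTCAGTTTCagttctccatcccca
Ifit1 (chr19:34640770-34640828, + strand): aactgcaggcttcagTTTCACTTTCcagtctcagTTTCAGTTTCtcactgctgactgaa
Ifit3 (chr19:34583358-34583431, + strand): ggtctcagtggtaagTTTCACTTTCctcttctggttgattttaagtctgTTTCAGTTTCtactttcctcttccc
Ifit3b (chr19:34607754-34607827, + strand): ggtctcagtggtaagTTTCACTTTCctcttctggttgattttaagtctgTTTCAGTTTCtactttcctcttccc
Isg15 (chr4:156200860-156200911, - strand): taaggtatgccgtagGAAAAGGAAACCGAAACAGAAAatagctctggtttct
Bst2 (chr8:71537572-71537617, - strand): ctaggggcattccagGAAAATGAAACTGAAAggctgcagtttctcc
Gbp2 and Gbp7 held 1 core each, Gbp3, Ifit1, Ifit3, Ifit3b and Bst2 held 2, and Isg15 held 3 that overlap. The 74 bases shown for Ifit3 and Ifit3b, neighbours on chromosome 19, were identical. The first cores lay 59 bases before the start listed by RefSeq for Gbp2, 45 before that of Gbp3, 53 before that of Gbp7 and 104 before that of Ifit1. The gene positions given below are from GENCODE M21, whose starts can differ. There Gbp2 begins at chr3:142620602, so by that start its core lies just inside the gene.

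Under differentiation conditions the members were higher with NAD+ as a group. Their summed level was 131.62 to 148.28 FPKM in the 3 Ctrl libraries and 225.51 to 271.90 FPKM in the 3 NAD+ libraries, so the groups did not overlap. Much of this sum came from Ifitm3 (means of 51.7 FPKM in Ctrl and 84.2 FPKM with NAD+) and Ifi27 (28.1 and 54.2 FPKM). Of the 35 tested members 34 had a log2 fold change above 0, the exception being Isg20. Of all 19611 tested genes 38.2% had one above 0. The median of the members was 0.77, beside -0.08 over all tested genes. An adjusted p under 0.05 (limma, Benjamini-Hochberg over all tested genes) was reached by 15 members, all higher with NAD+ (Gbp2, Gbp3, Gbp6, Gbp9, Gbp10, Irgm1, Ddx58, Ifit1, Ifit3, Ifit3b, Cmpk2, Bst2, Ifitm3, Ifi27 and Lgals3bp), and by none lower. Of all tested genes 2.27% passed as higher and 4.65% as lower. A rule of an unadjusted p under 0.05 with a ratio of mean FPKM over 2 took 16 members as higher and 0 as lower, where it took 1.36% of all tested genes as higher and 2.69% as lower. The 3 NAD+ libraries were all above the 3 Ctrl libraries in 25 of the 35 tested members and all below in 0, where this held for 9.68% and 21.1% of all tested genes. Since the list was made with such values known, no meaning is read from these counts. The count of 15 was 5, 8 or 6 without Ctrl replicate 1, 2 or 3 and 8 or 7 without NAD+ replicate 1 or 2, and 12 without NAD+ replicate 3.

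**Figure D1:**
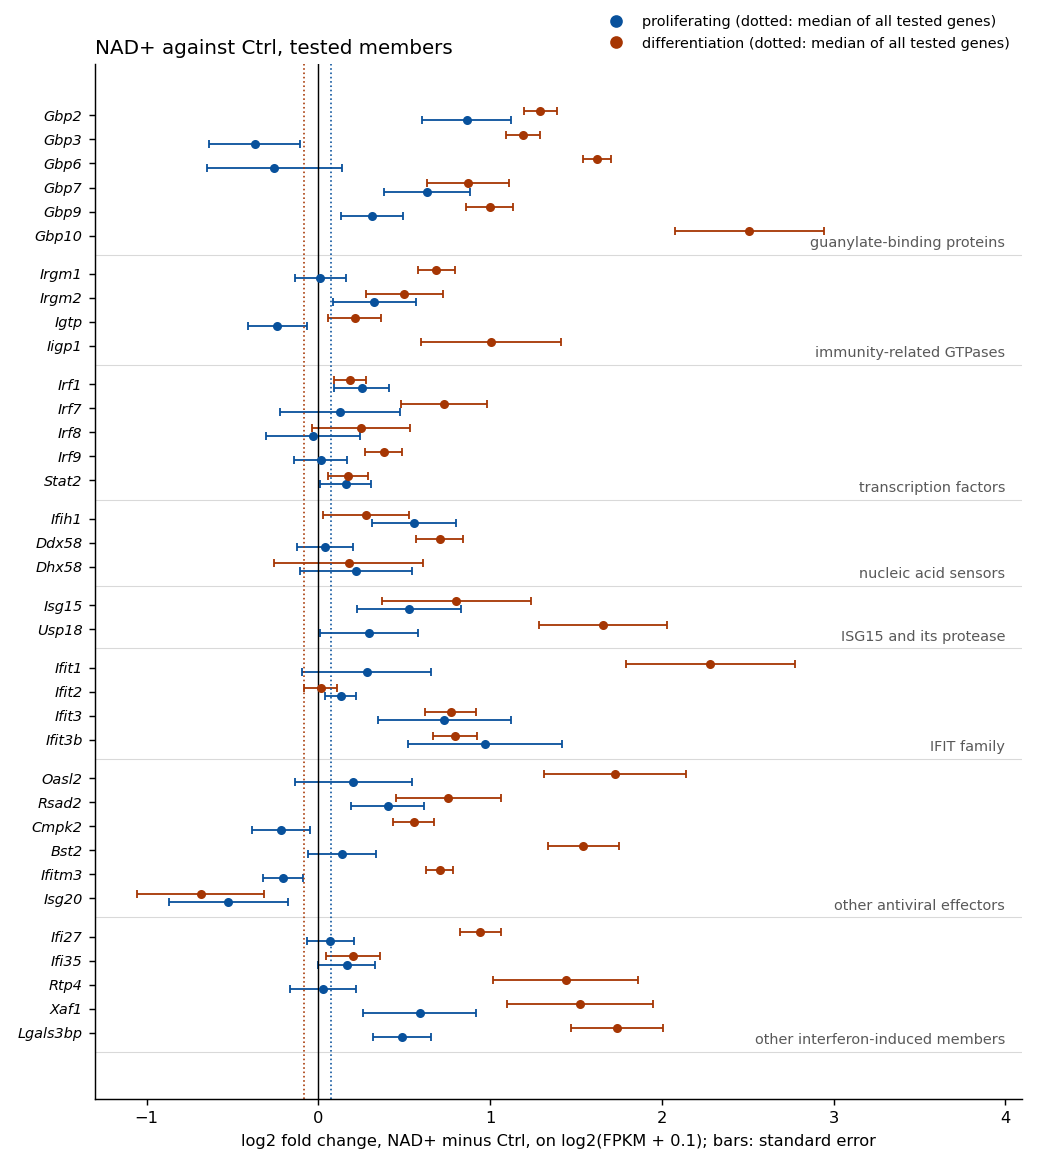
Difference between NAD+ and Ctrl on log2(FPKM + 0.1) for each tested member, with its standard error, under proliferating conditions (blue) and differentiation conditions (brown); dotted lines mark the medians of all tested genes. Of 35 members tested under differentiation conditions, Isg20 alone lay below 0, whereas under proliferating conditions 26 of 33 lay above 0 and most were close to it. Of all tested genes 38.2% lay above 0 under differentiation and 59.7% under proliferating conditions.

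All 6 guanylate-binding proteins that were tested were higher with NAD+ under differentiation conditions, with a median log2 fold change of 1.24. Of the 6, 5 were called, where 2.27% of all tested genes were called as higher. The genes lie in 2 clusters, with Gbp2, Gbp3, Gbp5 and Gbp7 on chromosome 3 and Gbp4, Gbp6, Gbp8, Gbp9 and Gbp10 on chromosome 5 (GENCODE M21, mm10). Summed over the 9 genes, the level under differentiation conditions was 11.20 to 13.47 FPKM in Ctrl and 32.17 to 36.80 FPKM with NAD+. All 6 tested genes had NAD+ libraries above every Ctrl library, where this held for 9.68% of all tested genes. The family belongs to the list that may have been chosen on these values, so its counts are a description.

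Gbp2 (ENSMUSG00000028270, chr3:142620602-142638008) had the highest level of the family, with 6.10, 6.67 and 7.27 FPKM in differentiation Ctrl and 16.79, 17.89 and 14.84 FPKM in differentiation NAD+, in the order of the replicate numbers. Its mean was 6.68 ± 0.59 (SD, n = 3) without NAD+ and 16.5 ± 1.54 (SD, n = 3) in its presence. The log2 fold change was 1.29 ± 0.10 (SE), and the groups were well apart. Gbp6 (ENSMUSG00000104713, chr5:105270702-105293698) had 1.63, 1.77 and 1.79 FPKM without and 5.53, 5.62 and 5.46 FPKM with NAD+, a log2 fold change of 1.62 ± 0.08 (SE). The 3 NAD+ libraries of Gbp6 lay close together, and far from the Ctrl libraries. Gbp3 (ENSMUSG00000028268, chr3:142560026-142573209) had 1.32, 1.21 and 1.29 FPKM without and 3.09, 3.17 and 2.86 FPKM with NAD+, a log2 fold change of 1.19 ± 0.10 (SE). Gbp9 had 1.09, 1.03 and 0.95 FPKM without and 2.19, 2.41 and 1.86 FPKM with NAD+, a log2 fold change of 1.00 ± 0.14 (SE). In both genes the replicates of a group differed by less than the groups did. Gbp7 was low, with 0.29, 0.37 and 0.38 FPKM without and 0.79, 0.88 and 0.52 FPKM with NAD+, and its log2 fold change was 0.87 ± 0.24 (SE).

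Gbp10 (ENSMUSG00000105096, chr5:105215699-105239533) had the largest log2 fold change of the group, 2.51 ± 0.43 (SE). It stood at 0.72, 2.29 and 0.64 FPKM in differentiation Ctrl and 5.89, 6.73 and 6.43 FPKM in differentiation NAD+, whereas it was listed at 0 in all 6 proliferating libraries. Ctrl replicate 2 lay well above the other two Ctrl libraries, and below every NAD+ library. Gbp4, Gbp5 and Gbp8 were close to 0 throughout, with no library above 0.11 FPKM. Gbp5 stood at 0.03, 0.00 and 0.01 FPKM without and 0.07, 0.05 and 0.05 FPKM with NAD+, Gbp4 at 0.02, 0.05 and 0.02 FPKM without and 0.05, 0.01 and 0.07 FPKM with NAD+, and Gbp8 at 0.00, 0.08 and 0.04 FPKM without and 0.00, 0.04 and 0.08 FPKM with NAD+. Their groups overlapped except for Gbp5, at levels too low to compare.

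**Figure D2:**
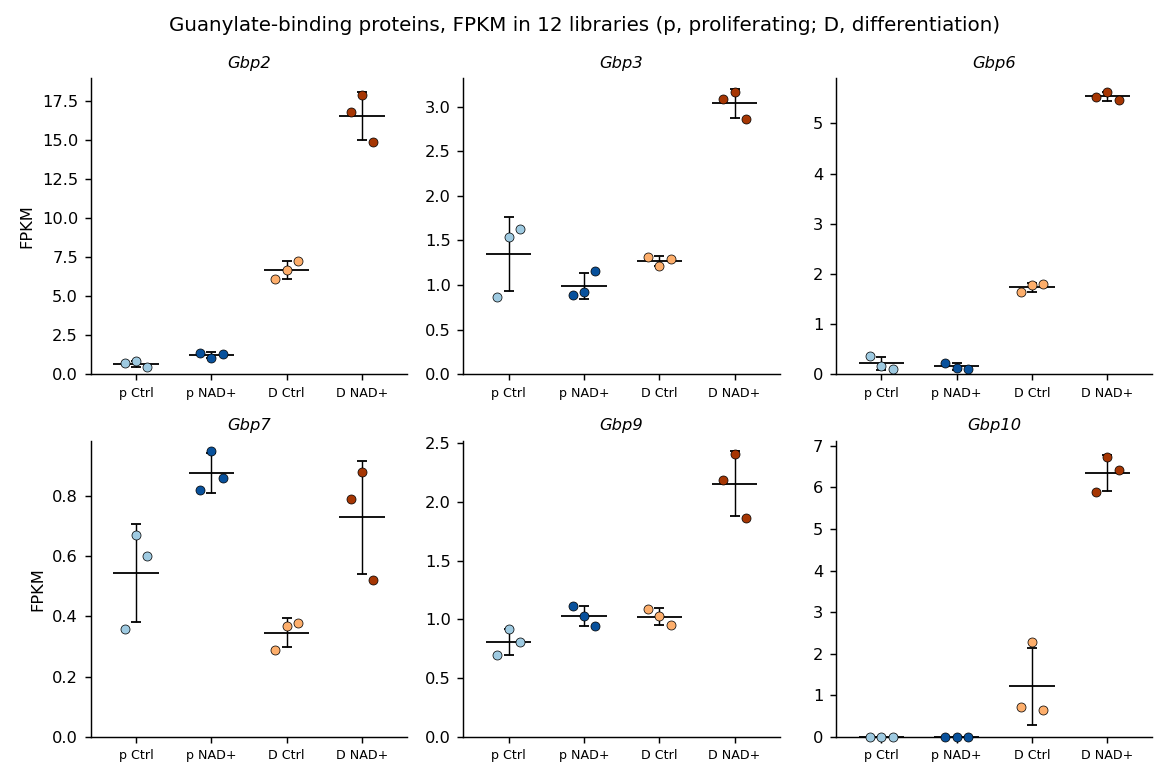
FPKM of 6 guanylate-binding proteins in the 12 libraries, with p for proliferating and D for differentiation conditions; each point is 1 library, the long line the mean of 3 and the bar 1 SD. In differentiation NAD+ all points of the 6 genes lie above those of differentiation Ctrl, and Gbp10 is at 0 in all 6 proliferating libraries.

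Several of these genes are near copies of each other, and only reads that mapped to 1 place had been kept. Of all stretches of 50 bases in the transcripts of Gbp10, 84.1% occurred exactly in another gene (73.3% in Gbp6), and of those of Gbp6 70.7% did (65.0% in Gm43302, ENSMUSG00000079362). Gm43302 had 1.55, 0.73 and 1.77 FPKM in differentiation Ctrl and 2.28, 2.26 and 2.23 FPKM in differentiation NAD+. The share fell to 73.5% for Gbp10 and 64.5% for Gbp6 with stretches of 100 bases. Much of the transcripts of Gbp6 and Gbp10 thus occurred in other genes at these lengths. The read length is not given in the sources used here, and how reads were divided between these genes is uncertain. Gbp2 and Gbp3 shared 2.03% and 3.75% of their 50-base stretches with other genes. Ifit3 and Ifit3b shared 51.2% and 44.95%, and Oas1a 57.6%, mainly with Oas1g. The 20 members that shared less than 1%, Lgals3bp, Bst2, Ifi27, Irgm1, Cmpk2 and Ddx58 among them, included 6 of the 15 called members, with a median log2 fold change of 0.62 over the 18 tested. Gbp4, Gbp8 and Gbp9 overlap on chromosome 5 with 60 or 61 exonic bases in common, and Igtp and Irgm2 on chromosome 11 with 162.

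**Figure D3:**
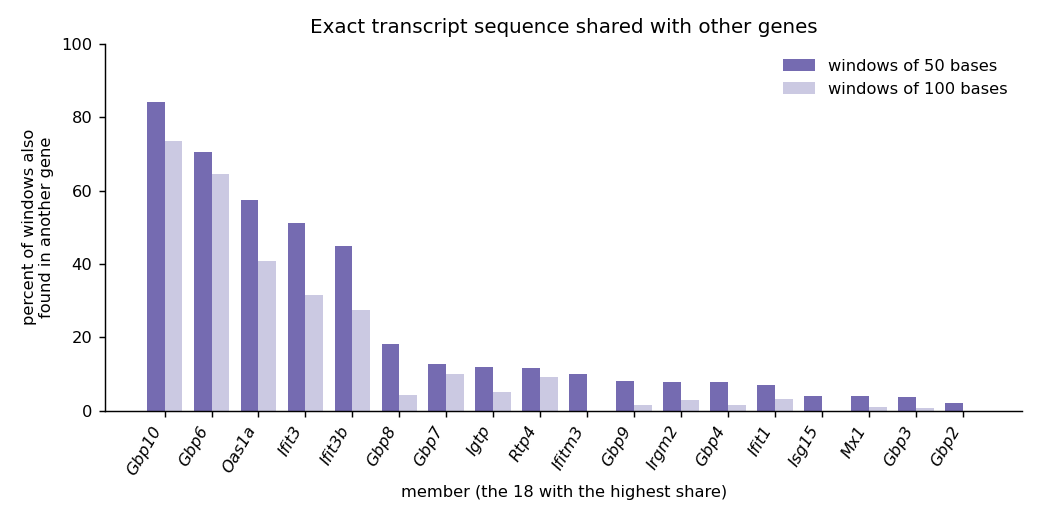
Percent of the 50-base and 100-base stretches in a member's transcripts (GENCODE M21) that also occur exactly in a transcript of another gene, for the 18 members with the highest share. Gbp10, Gbp6, Oas1a, Ifit3 and Ifit3b stand above 40% with stretches of 50 bases, and the other members are below 20%.

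Of the antiviral effectors, Ifitm3 (ENSMUSG00000025492, chr7:141009586-141010770), which hinders entry of viruses through endosomes, was the most abundant member. It stood at 50.43, 47.38 and 57.25 FPKM in differentiation Ctrl and 82.14, 88.88 and 81.66 FPKM in differentiation NAD+, a log2 fold change of 0.71 ± 0.08 (SE). The groups did not overlap. Bst2 (tetherin, which holds budding virus at the cell surface) had 1.55, 2.08 and 1.84 FPKM without and 5.40, 7.17 and 4.22 FPKM with NAD+, a log2 fold change of 1.54 ± 0.21 (SE). Its lowest NAD+ library, replicate 3, was still above the highest Ctrl library. Cmpk2, a nucleotide kinase of mitochondria, had 1.08, 1.07 and 1.10 FPKM without and 1.49, 1.77 and 1.67 FPKM with NAD+, a log2 fold change of 0.56 ± 0.12 (SE). Its neighbour Rsad2 (viperin, which makes an antiviral nucleotide) was lower, between 0.24 and 0.28 FPKM in Ctrl and between 0.34 and 0.82 FPKM with NAD+. Oasl2, of the oligoadenylate synthetase family, was between 0.16 and 0.21 FPKM in Ctrl and between 0.39 and 1.24 FPKM with NAD+. The RNA exonuclease Isg20 went the other way, with 0.44 to 0.90 FPKM in Ctrl and 0.21 to 0.51 FPKM with NAD+, and its groups overlapped. Mx1 and Oas1a had no library above 0.16 FPKM.

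Of the IFIT family, IFIT1 binds the 5′ ends of foreign RNA. Ifit3 stood at 8.56, 8.12 and 8.32 FPKM in differentiation Ctrl and 15.47, 16.82 and 11.21 FPKM in differentiation NAD+, a log2 fold change of 0.77 ± 0.15 (SE). Ifit3b stood at 7.25, 5.81 and 7.67 FPKM without and 12.42, 13.10 and 10.57 FPKM with NAD+, a log2 fold change of 0.80 ± 0.13 (SE). Both genes, whose upstream stretches above are identical, gave similar values, and since they share much of their transcripts their levels cannot be separated fully. Ifit1, named after its values were seen, was low in Ctrl (0.11, 0.21 and 0.09 FPKM) and stood at 1.61, 1.47 and 0.43 FPKM with NAD+, a log2 fold change of 2.28 ± 0.49 (SE). NAD+ replicate 3 lay far below the other two. Ifit2 hardly differed, with 4.30 to 5.14 FPKM in Ctrl and 4.34 to 4.89 FPKM with NAD+.

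Lgals3bp, a secreted glycoprotein that binds galectins, had 2.60, 3.85 and 2.29 FPKM in differentiation Ctrl and 11.34, 11.77 and 6.86 FPKM in differentiation NAD+, and its log2 fold change of 1.74 ± 0.27 (SE) was the next after Gbp10 among members with a mean of at least 1 FPKM. Ifi27, a small membrane protein, was the second most abundant member, with 26.84, 25.67 and 31.77 FPKM without and 59.26, 56.94 and 46.32 FPKM with NAD+, a log2 fold change of 0.94 ± 0.12 (SE). Neither gene overlapped between groups. Isg15, a ubiquitin-like protein that is joined to other proteins, did overlap, with 1.08, 0.70 and 0.45 FPKM without and 2.30, 1.22 and 0.77 FPKM with NAD+. Its log2 fold change of 0.80 ± 0.43 (SE) was less than 2 standard errors from 0. Usp18, which removes ISG15, was between 0.06 and 0.25 FPKM in Ctrl and between 0.43 and 0.81 FPKM with NAD+. Rtp4, a chaperone of receptors, was between 0.16 and 0.45 FPKM in Ctrl and between 0.57 and 1.49 FPKM with NAD+. Xaf1, a partner of the apoptosis inhibitor XIAP, was between 0.05 and 0.31 FPKM in Ctrl and between 0.46 and 0.83 FPKM with NAD+. These 3 genes did not overlap between groups at their low levels. Ifi35 overlapped, with 2.83 to 3.91 FPKM in Ctrl and 3.22 to 4.12 FPKM with NAD+.

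**Figure D4:**
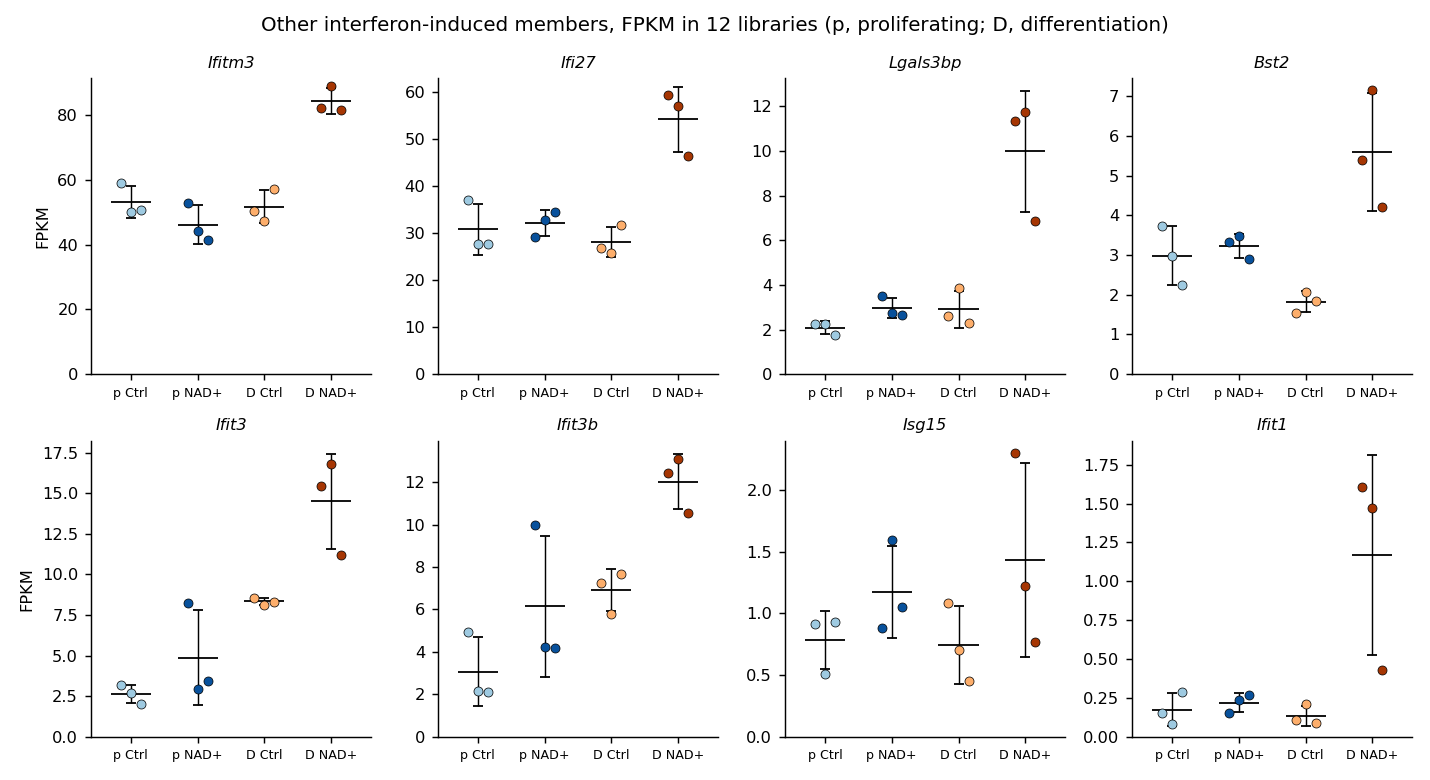
FPKM of 8 other members in the 12 libraries, with p for proliferating and D for differentiation conditions; each point is 1 library, the long line the mean of 3 and the bar 1 SD. Ifitm3, Ifi27, Lgals3bp, Bst2, Ifit3, Ifit3b and Ifit1 do not overlap between differentiation Ctrl and differentiation NAD+, whereas Isg15 does, and proliferating NAD+ replicate 1 stands apart for Ifit3 and Ifit3b.

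The 5 transcription factors of the response had a median log2 fold change of 0.25, beside 0.77 over all tested members. Irf9, a DNA-binding partner of STAT2, had 2.96, 2.34 and 2.50 FPKM in differentiation Ctrl and 3.28, 3.44 and 3.47 FPKM in differentiation NAD+, a log2 fold change of 0.38 ± 0.11 (SE). Irf1, an activator induced by IFN-gamma, had 2.02, 2.14 and 2.06 FPKM without and 2.43, 2.47 and 2.21 FPKM with NAD+, a log2 fold change of 0.18 ± 0.10 (SE). In both genes the groups were next to each other without overlap. Irf7, which drives type I interferon genes, was low, with 0.14, 0.15 and 0.18 FPKM without and 0.39, 0.35 and 0.25 FPKM with NAD+. Its log2 fold change of 0.73 ± 0.25 (SE) was the largest of the 5 factors, and its groups did not overlap. Stat2 had 2.72, 2.41 and 2.47 FPKM without and 3.13, 2.49 and 3.0 FPKM with NAD+, and overlapped. Irf8, a factor of myeloid cells and B cells, had 0.24, 0.11 and 0.18 FPKM without and 0.20, 0.21 and 0.26 FPKM with NAD+, and overlapped too. Of the sensors of viral RNA, Ddx58 (RIG-I) had 1.59 to 2.11 FPKM without and 2.85 to 3.36 FPKM with NAD+, whereas Ifih1 (MDA5) with 0.23 to 0.41 and 0.35 to 0.48 FPKM and Dhx58 (LGP2) with 0.15 to 0.37 and 0.11 to 0.38 FPKM overlapped. Zbp1, a sensor of Z-form nucleic acid, had no differentiation library above 0.01 FPKM. Among the immunity-related GTPases, Irgm1 had 1.43 to 1.64 FPKM without and 2.37 to 2.68 FPKM with NAD+, Iigp1 had 0.02 to 0.05 and 0.07 to 0.29 FPKM, and Irgm2 (0.92 to 1.26 and 1.19 to 2.07 FPKM) and Igtp (2.04 to 2.50 and 2.15 to 3.08 FPKM) overlapped.

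The 3 NAD+ libraries did not show these values to the same degree. The median difference from the Ctrl mean over the 35 tested members, on log2(FPKM + 0.1), was 0.88, 0.92 and 0.56 in NAD+ replicates 1, 2 and 3, beside -0.01, -0.04 and 0.02 in the Ctrl libraries. NAD+ replicate 3 held the lowest value of the NAD+ libraries in 25 of the 35 members and NAD+ replicate 2 the highest in 24. In Lgals3bp, Ifit1, Oasl2 and Iigp1 NAD+ replicate 3 was well below the other two, whereas Gbp6 and Gbp10 were alike in all 3. Without NAD+ replicate 3 the median log2 fold change of the members was 0.94.

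**Figure D5:**
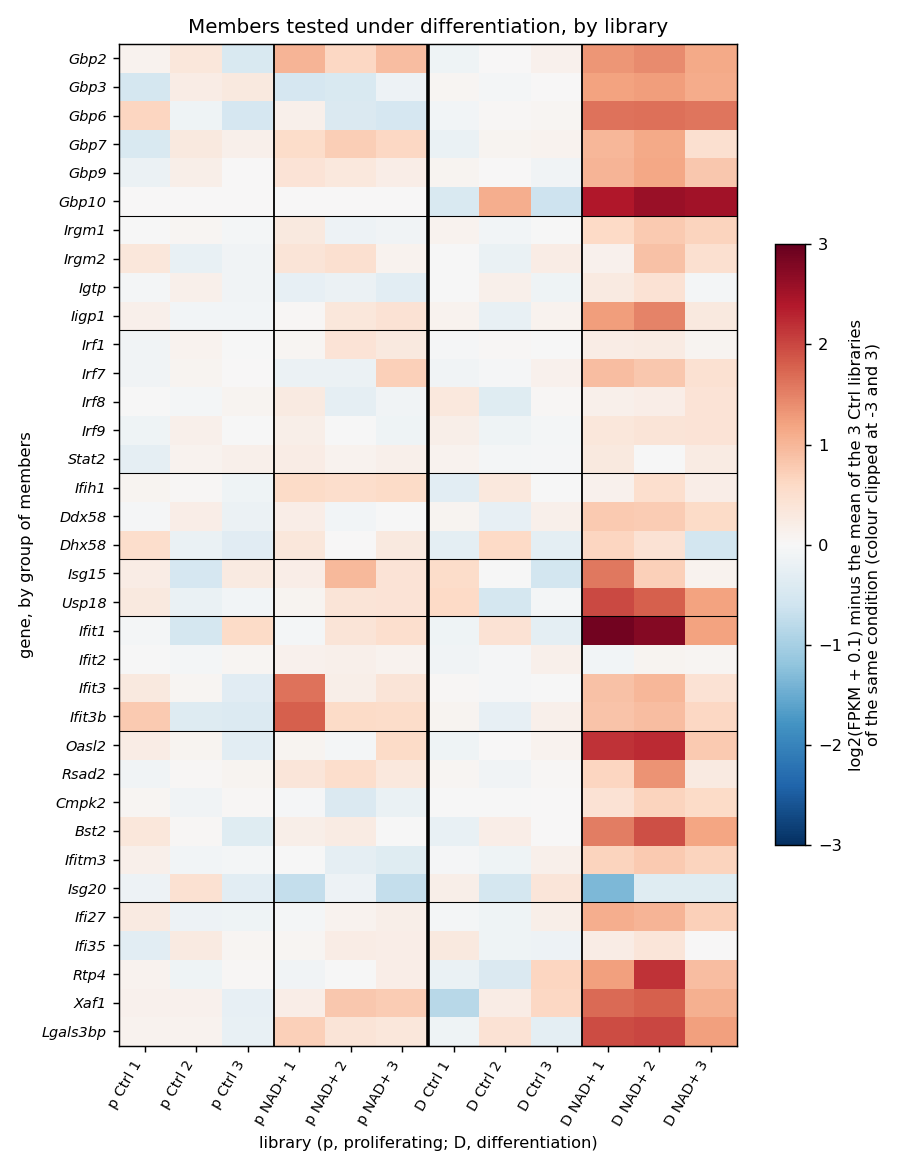
Difference of log2(FPKM + 0.1) from the mean of the 3 Ctrl libraries of the same condition, for the 35 members tested under differentiation conditions (rows, by group of members) in the 12 libraries (columns; p, proliferating, D, differentiation); red is higher and blue lower. The differentiation NAD+ columns are mostly red, with replicate 3 paler in many rows and Isg20 blue, and the proliferating columns are paler, the darkest cells being Ifit3 and Ifit3b in NAD+ replicate 1.

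Under proliferating conditions the members differed little with NAD+. Their summed level was 117.48 to 138.96 FPKM in Ctrl and 122.39 to 141.19 FPKM with NAD+. Much of it came again from Ifitm3 (means of 53.2 FPKM in Ctrl and 46.2 FPKM with NAD+) and Ifi27 (30.8 and 32.1 FPKM). Of 33 tested members 26 (78.8%) had a log2 fold change above 0 and 7 below, where 59.7% of all 18597 tested genes had one above 0. The median of the members was 0.17, beside 0.07 over all tested genes. No member reached an adjusted p under 0.05 in limma, where 0.0484% of all tested genes did as higher and 0.0968% as lower, and 3 members (Gbp2, Gbp7 and Lgals3bp) had an unadjusted p under 0.05, all as higher. That is 9.09% of the tested members, near the 9.35% of all tested genes that had one as higher, where 6.05% had one as lower. The rule of an unadjusted p with a ratio over 2 took 0 members, where it took 1.60% of all tested genes as higher and 1.41% as lower. The NAD+ libraries were all above the Ctrl libraries in 8 of the 33 members (Gbp2, Gbp7, Gbp9, Ifih1, Ifit2, Rsad2, Xaf1 and Lgals3bp) and all below in 1 (Igtp), where this held for 15.5% and 8.59% of all tested genes.

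Ifit3b and Ifit3 had the largest log2 fold changes among the members with a mean of at least 1 FPKM. Ifit3b stood at 4.95, 2.14 and 2.11 FPKM in proliferating Ctrl and 10.00, 4.25 and 4.18 FPKM in proliferating NAD+, a log2 fold change of 0.97 ± 0.45 (SE). Ifit3 stood at 3.17, 2.68 and 2.04 FPKM without and 8.23, 2.94 and 3.42 FPKM with NAD+, a log2 fold change of 0.73 ± 0.39 (SE). In both genes NAD+ replicate 1 was far above the other two and the groups overlapped, and in Ifit3b Ctrl replicate 1 was above the other Ctrl libraries as well. Without NAD+ replicate 1 the log2 fold changes were 0.56 (Ifit3b) and 0.28 (Ifit3). Lgals3bp had 2.24, 2.25 and 1.75 FPKM without and 3.48, 2.75 and 2.64 FPKM with NAD+, a log2 fold change of 0.49 ± 0.17 (SE) without overlap. Gbp2 had 0.68, 0.82 and 0.43 FPKM without and 1.38, 1.02 and 1.28 FPKM with NAD+, and Gbp7 had 0.36, 0.67 and 0.60 FPKM without and 0.82, 0.95 and 0.86 FPKM with NAD+. Both Gbp genes were separate between groups at low levels. Gbp9 had 0.70, 0.92 and 0.81 FPKM without and 1.11, 1.03 and 0.94 FPKM with NAD+, hardly apart.

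The remaining members with detailed values lay on either side of 0. Gbp3 had 0.87, 1.54 and 1.63 FPKM in proliferating Ctrl and 0.89, 0.92 and 1.16 FPKM in proliferating NAD+, a log2 fold change of -0.37 ± 0.27 (SE). Ifitm3 had 58.94, 49.93 and 50.80 FPKM without and 52.84, 44.16 and 41.55 FPKM with NAD+, a log2 fold change of -0.21 ± 0.12 (SE). Cmpk2 had 1.57, 1.40 and 1.56 FPKM without and 1.48, 1.09 and 1.31 FPKM with NAD+, a log2 fold change of -0.22 ± 0.17 (SE). The groups of these 3 genes overlapped. Irf1 had 1.43, 1.66 and 1.52 FPKM without and 1.59, 2.08 and 1.90 FPKM with NAD+, and Ifi35 had 2.99, 4.53 and 3.90 FPKM without and 3.93, 4.39 and 4.36 FPKM with NAD+, also with overlap. Gbp6 was low (0.36, 0.17 and 0.11 FPKM without, 0.23, 0.12 and 0.11 FPKM with NAD+). Irf7 (0.12, 0.15 and 0.14 FPKM without, 0.11, 0.11 and 0.29 FPKM with NAD+) and Irf8 (0.21, 0.20 and 0.23 FPKM without, 0.28, 0.16 and 0.19 FPKM with NAD+) were low as well. Irf9 (1.53, 1.87 and 1.66 FPKM without, 1.91, 1.67 and 1.53 FPKM with NAD+) and Stat2 (2.16, 2.82 and 2.89 FPKM without, 3.05, 2.81 and 2.89 FPKM with NAD+) were alike in both groups. The other 17 tested members had log2 fold changes between -0.52 (Isg20) and 0.59 (Xaf1). Among them Ifi27 was at 27.64 to 37.12 FPKM without and 29.15 to 34.58 FPKM with NAD+, and Bst2 at 2.24 to 3.72 and 2.89 to 3.48 FPKM. Ifih1 (0.14 to 0.18 and 0.28 to 0.29 FPKM) was higher and Igtp (0.93 to 1.12 and 0.79 to 0.88 FPKM) lower with NAD+ in every library.

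Set side by side, the log2 fold change was larger under differentiation than under proliferating conditions in 27 of the 33 members tested in both. In a fit of all 12 libraries it was larger in 28 of 34 members (82.4%), beside 33.2% of all tested genes. In that fit 2 of the 34 members passed an adjusted p under 0.05 for a larger NAD+ difference under differentiation conditions and 0 for a smaller one. Of all tested genes 0.221% and 0.246% did. The 2 members were Gbp3, with a difference between the log2 fold changes of 1.56 ± 0.29 (SE), and Ifitm3, with 0.91 ± 0.15 (SE). For 15 members the unadjusted p was under 0.05, all for a larger difference (44.1%), where 3.35% of all tested genes had one for a larger and 12.2% for a smaller difference. The list may have been chosen on these values, so the counts are a description. Gbp10, listed at 0 in every proliferating library, is among the 15. The count of 2 was 0 without any 1 of the differentiation libraries except Ctrl replicate 2 (1), 0 without proliferating Ctrl replicate 3, NAD+ replicate 2 or NAD+ replicate 3, 1 without proliferating Ctrl replicate 2 and 3 without proliferating Ctrl replicate 1 or NAD+ replicate 1.

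How the members differed between the conditions without NAD+ was a separate comparison. Whether the list was chosen on it is not recorded, so its counts and fold changes are a description as well. This comparison shares the Ctrl libraries with both NAD+ comparisons, and the conditions were deposited in separate tables, each library scaled to its own total. Of 34 tested members 11 rose from proliferating Ctrl to differentiation Ctrl and 4 fell (limma, adjusted p under 0.05). That is 32.4% and 11.8% of the members, where 25% of all tested genes rose and 31.6% fell. The median log2 fold change was 0.08 beside -0.06 over all genes. Gbp2 went from 0.643 ± 0.198 (SD, n = 3) to 6.68 ± 0.59 (SD, n = 3) FPKM, a log2 fold change of 3.22 ± 0.19 (SE). Gbp6 rose by 2.62 ± 0.27 (SE) on the log2(FPKM + 0.1) scale. Gbp10 is counted among the 11 too, but it was listed at 0 in every proliferating library, so no fold is given. It passed the filter only through the differentiation libraries, so its call is no support. Gbp3, Gbp7 and Gbp9, the other tested Gbp genes, did not pass the test, with log2 fold changes of -0.03 ± 0.20, -0.50 ± 0.24 and 0.31 ± 0.15 (SE). Ifit3 and Ifit3b rose by 1.65 ± 0.32 and 1.25 ± 0.36 (SE), Igtp and Irgm2 by 1.10 ± 0.15 and 0.98 ± 0.23 (SE), and Isg20, Ifih1, Irf9 and Irf1 by 1.33 ± 0.36, 0.64 ± 0.22, 0.59 ± 0.13 and 0.41 ± 0.12 (SE). The members that fell were Irgm1 (-1.36 ± 0.13, SE), Rtp4 (-1.18 ± 0.34, SE), Bst2 (-0.66 ± 0.21, SE) and Cmpk2 (-0.44 ± 0.14, SE).

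The other genes of the pathway were taken from a list of 118 genes outside the members, put together from textbook knowledge, but with earlier results of these data known, so its counts are not independent of them. The 20 interferon genes themselves were close to 0. None passed the filter, Ifnb1 and Ifng were listed at 0 in all 12 libraries, and the summed level of all 20 was at most 0.15 FPKM in a library. Of the interferon-lambda receptor, Ifnlr1 was at most 0.03 FPKM in all 12 libraries. Ifnar1 stood at 9.34, 12.62 and 10.96 FPKM in differentiation Ctrl and 12.21, 13.29 and 13.28 FPKM in differentiation NAD+ (log2 fold change 0.24 ± 0.11 (SE), limma adjusted p = 0.25). Ifngr2, the signalling chain of the IFN-gamma receptor, stood at 4.66, 5.30 and 4.52 FPKM without and 6.57, 7.26 and 6.57 FPKM with NAD+, and it rose (0.49 ± 0.09 (SE), limma adjusted p = 0.028). Ifnar2, Ifngr1, Jak1, Jak2 and Tyk2 had log2 fold changes of -0.03, -0.24, 0.05, -0.10 and 0.06 and did not pass the test.

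Of the 67 tested pathway genes 4 rose with NAD+ under differentiation conditions and 0 fell, 5.97% beside the 2.27% of all tested genes, and 12 (17.9%) had an unadjusted p under 0.05 as higher and 1 (1.49%) as lower, beside 7.50% and 16.7% of all tested genes. The 4 were Ifngr2, Lgals9, Samd9l and Tor3a. Lgals9, which encodes galectin-9, stood at 0.51, 0.62 and 0.32 FPKM without and 3.14, 2.22 and 1.12 FPKM with NAD+ (1.88 ± 0.39 (SE), limma adjusted p = 0.041). Samd9l, an antiviral factor, stood at 0.78, 0.99 and 0.96 FPKM without and 2.14, 2.22 and 2.00 FPKM with NAD+ (1.14 ± 0.13 (SE), limma adjusted p = 0.0090). Tor3a, a torsin ATPase, stood at 4.78, 5.05 and 5.37 FPKM without and 7.73, 8.87 and 7.73 FPKM with NAD+ (0.67 ± 0.08 (SE), limma adjusted p = 0.011). The median over the 67 genes was 0.10, beside 0.77 over the 35 tested members, which may have been chosen on their values. The count of 4 was 1 without Ctrl replicate 1 and 2 without NAD+ replicate 1 or 2. Under proliferating conditions 0 of 59 tested pathway genes passed an adjusted p under 0.05 in limma, and 8 (13.6%) had an unadjusted p under 0.05 as higher and 1 (1.69%) as lower, beside 9.35% and 6.05% of all tested genes. There Ifnar1 stood at 10.12, 10.11 and 11.82 FPKM without and 14.44, 14.00 and 14.77 FPKM with NAD+ (0.43 ± 0.09 (SE), limma adjusted p = 0.126), and Ifngr2 at 5.76, 4.85 and 5.36 FPKM without and 7.89, 6.68 and 7.27 FPKM with NAD+ (0.44 ± 0.11 (SE), limma adjusted p = 0.163). Both receptor chains were thus higher in every NAD+ library than in every Ctrl library without passing the test.

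These were bulk libraries, in which more cells of a type and more RNA per cell cannot be told apart. Of 14 markers of microglia and macrophages, which respond strongly to interferon, 12 were below the filter under differentiation conditions. The summed level was 2.20 to 2.54 FPKM in differentiation Ctrl and 3.66 to 4.54 FPKM in differentiation NAD+, most of it Cd68, a lysosomal protein, at 1.92, 1.34 and 1.51 FPKM without and 3.30, 3.50 and 3.91 FPKM with NAD+. Cd68 was higher with NAD+ under proliferating conditions too, at 1.01, 1.16 and 0.77 FPKM without and 6.89, 3.07 and 2.83 FPKM with NAD+. Aif1, Itgam, Trem2 and Spi1 were at most 0.09 FPKM in differentiation Ctrl and listed at 0 in all 3 differentiation NAD+ libraries. Cx3cr1, Csf1r, C1qb and Ptprc were at most 0.16 FPKM in differentiation Ctrl and at most 0.04 FPKM in differentiation NAD+. P2ry12 stood at 0.00, 0.04 and 0.04 FPKM without and 0.02, 0.19 and 0.08 FPKM with NAD+, and Tmem119 at 0.00, 0.02 and 0.08 FPKM without and 0.00, 0.08 and 0.09 FPKM with NAD+, both with overlap. C1qa, Tyrobp and Fcer1g were between 0.00 and 0.50 FPKM without and between 0.00 and 0.33 FPKM with NAD+. T and NK cell markers summed to at most 0.19 FPKM and endothelial markers to at most 0.37 FPKM in the differentiation libraries. Markers of pericytes and fibroblasts summed to 1.32 to 1.64 FPKM in differentiation Ctrl and 1.84 to 2.29 FPKM in differentiation NAD+, and neuron markers to 29.56 to 34.67 and 30.13 to 30.29 FPKM. Astrocyte markers summed to 1457 to 1627 FPKM in differentiation Ctrl and 1907 to 1938 FPKM in differentiation NAD+, of which Gfap made up 545.96 to 642.12 and 965.04 to 998.61 FPKM. Of 7 astrocyte markers 3 rose and 2 fell (limma, adjusted p under 0.05), where 2.27% of all tested genes rose and 4.65% fell. Those that rose were Gfap, Slc1a3 and Slc1a2, with log2 fold changes of 0.72, 0.36 and 0.26. Aldh1l1 (-0.61) and Aldoc (-0.35) fell. S100b (0.17) and Aqp4 (-0.31) did not pass the test. Cnp, a marker of the oligodendrocyte lineage, stood at 109.61, 130.44 and 112.95 FPKM in differentiation Ctrl and 66.90, 81.68 and 69.18 FPKM in differentiation NAD+, and fell. The part of these shifts in the values of the members was not tested.

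Of the 11 called members with a promoter window 9 held the ISRE core in it (Gbp2, Gbp3, Irgm1, Ddx58, Ifit1, Ifit3, Ifit3b, Bst2 and Ifitm3). Cmpk2 and Lgals3bp did not. Of the 16 tested members with a window that were not called, 7 held it (Gbp7, Irgm2, Igtp, Stat2, Ifih1, Isg15 and Rsad2). In Ddx58, Ifitm3 and Ifih1 no match lay wholly before the listed start. The GAS letters were present in 2 of the 11 and 8 of the 16. These counts are a description, since the calls belong to values on which the list may have been chosen.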

How the data were processed

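Per the file headers, the deposited values were FPKM per gene and library, in a table for each condition. The authors had used Hisat2 v2.0.5 for mapping to mm10, and had counted uniquely mapped reads by gene in FeatureCounts v2.0.1; the program that gave FPKM is not given in the sources used here. The tables also hold fold changes, p-values and q-values of the authors' own comparison, which were not used. The number of unused per-sample columns is 0. The depth is unknown, so only the spread of the 3 libraries per group shows the precision.

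The members and all gene lists were chosen with earlier results of these data known. Each condition was fitted with limma 3.58.1 (R 4.3.3) on log2(FPKM + 0.1), with a trended moderated variance, two-sided, for genes with a mean of at least 0.1 FPKM, and adjusted by Benjamini-Hochberg over all tested genes. The comparisons across conditions were contrasts of a fit of all 12 libraries. The code was tested on simulated data. Values per library were given for the 12 (differentiation) or 8 (proliferating) tested members with a mean of at least 1 FPKM and the largest absolute log2 fold change, for all Gbp genes and for Irf1, Irf7, Irf8, Irf9 and Stat2, and other members by range. Gene positions and transcripts came from GENCODE M21, and promoters from RefSeq (GRCm38.p6). Alternatives were 1 or 0.01 added in place of 0.1, no filter or a minimum mean FPKM of 1, median-ratio scaling, quantile normalization, a replicate block, no moderation of the variance, and each library left out in turn. Python 3.11.15 was used for sequences and figures. Some genes of the lists are not reported here.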

Additional observations from a re-analysis of the deposited data

Results flagged for a closer look

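Gbp3 and Ifitm3 were flagged because they were the members called for a different NAD+ difference between the 2 conditions, in a fit of all 12 libraries. The log2 fold change of Gbp3 was larger under differentiation than under proliferating conditions by 1.56 ± 0.29 (SE), from 1.19 ± 0.10 against -0.37 ± 0.27 (SE). For Ifitm3 it was larger by 0.91 ± 0.15 (SE), from 0.71 ± 0.08 against -0.21 ± 0.12 (SE). Both genes belong to a list that may have been chosen on such values, so these are descriptions and the calls are no support. No member was called with the replicate block or without moderation of the variance, and 0 to 3 were with 1 library left out.

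Ifi44 was noted because its libraries moved in opposite directions in the 2 conditions, which was not tested since the gene was below the filter in both. It had 0.06, 0.11 and 0.08 FPKM in proliferating Ctrl and 0.01, 0.04 and 0.03 FPKM in proliferating NAD+, against 0.01, 0.06 and 0.03 FPKM in differentiation Ctrl and 0.16, 0.18 and 0.11 FPKM in differentiation NAD+. The mean under differentiation conditions was 0.12 FPKM higher with NAD+.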

How the results depend on the processing

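No called result changed direction under any alternative tried. Of the single genes' values under alternatives, 1362 stayed on their side of the threshold, 116 lost it, 6 gained it and 34 values of genes with no call changed sign. Under differentiation conditions the 15 called members became 8 with the replicate block and 7 without moderation of the variance, all among the 15. With 1 library left out they were 5 to 12. Gbp2, Gbp3, Gbp6 and Ifitm3 kept their call in 14 of 14 alternatives. All these fits used the libraries on which the list may have been chosen, so a kept call is a description and no support. The members taken by the rule of an unadjusted p and a ratio over 2 were 7 with a minimum mean FPKM of 1, by which fewer genes were tested, and 11 to 18 with 1 library left out. The median log2 fold change over all tested members was 0.48 with 1 added in place of 0.1, and 0.69 to 0.94 with 1 library left out. The 4 pathway genes became 2 without moderation and 1 to 5 with 1 library left out. Under proliferating conditions the median of 0.17 was 0.069 with 1 added, 0.10 with median-ratio scaling and 0.16 to 0.22 with 1 library left out, and the members taken by the ratio rule were 1 without the filter, 1 with the replicate block and 0 to 2 with 1 library left out. The 2 members with a different NAD+ effect became 4 with 1 added, 1 with 0.01 added, 1 without the filter, 0 with the replicate block, 0 without moderation and 0 to 3 with 1 library left out. The members called between the conditions without NAD+ were 13 to 15 with 1 library left out. The causes were not tested. Libraries of the same replicate number correlated around their group means with 0.11, 0.02 and 0.05 under proliferating and 0.04, 0.04 and 0.03 under differentiation conditions, beside means of -0.03 and -0.02 between different numbers, so the numbers were not taken as pairs. FPKM rounded to 0.01 limit what can be said of members under about 0.1 FPKM.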
